A study of Mus musculus with 12 samples.

Results

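Mouse embryonic stem cells kept for 6 days in 2i with 50 µM of an MRE11 inhibitor were compared with cells kept for 6 days in 2i alone. The members are the 6 libraries that the labels assign to these 2 groups, 3 in each, of 12 in the series. Every mouse gene ID of the count tables was considered, and 13230 of 56691 passed the low-count filter and were tested.

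The cells were R1 embryonic stem cells, a male mouse line of the 129/Sv background, grown on gelatin in medium with FBS and LIF. Cells at day 0, which the labels call primed, were moved to 2i for 6 days, alone or with the inhibitor at 25 or 50 µM. The 6 libraries compared therefore share the line and the 6 days of 2i and differ in the inhibitor. The labels call the compound MRE11i, its chemical name and any vehicle given with 2i alone are not stated in the sources used here, and the inhibitor had no group of its own without 2i. The series asks, by its title, what the MRE11 nuclease and DNA replication have to do with the passage from primed to naive cells.

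MRE11 is the nuclease of a complex with RAD50 and NBN (NBS1). The complex binds broken DNA ends, starts their resection for homologous recombination and helps to activate the ATM kinase, and MRE11 also degrades nascent DNA at stalled replication forks that lack protection. 2i is a pair of inhibitors of the kinases MEK and GSK3 that lowers ERK signalling, stabilises beta-catenin and holds mouse embryonic stem cells in the naive state of the preimplantation epiblast. Naive cells in 2i lose DNA methylation and transcribe germline genes that methylation otherwise silences, and a minority of cells in such cultures enters a state with transcripts of the 2-cell embryo.

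The 6 libraries were 3′ mRNA libraries with 5997395 to 6652846 counts each. A count was found for 19321 to 19824 genes in 2i alone and for 18498 to 19051 at 50 µM, and mitochondrially encoded genes took 4.69% to 5.38% and 5.42% to 6.82% of counts, so that neither range overlapped. The library numbered 1 stood apart in every group: a single gene ID without a symbol took 2.32% to 2.71% of its counts in the 4 groups. The labels do not say that replicates were separate cultures, so the p-values rest on a spread among libraries that may be technical. Of the naive markers, Nanog had means of 1180 and 1030 CPM (counts scaled to the size of the library) in 2i and at 50 µM, and Sox2 had 544 and 556 CPM. Pou5f1, which encodes the pluripotency factor OCT4, had only 6.7 and 7.24 CPM, and the cause of this low value was not tested.

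At 50 µM, 927 genes rose and 1067 fell, together 15.1% of the genes tested (7.01% and 8.07%). The call was an adjusted p below 0.05 from edgeR's quasi-likelihood test, with Benjamini-Hochberg adjustment over all 13230 genes and no fold minimum. Sizes written below as rose by or fell by are differences between the group means on the log2 scale. Falls were the larger changes: 469 genes fell at least 2-fold (3.54%) and 150 rose at least 2-fold (1.13%). The median difference of all genes tested was 0.009 on the log2 scale. Without a 2i library the rises numbered 594, 505 and 560 (replicates 1, 2 and 3), and without the 50 µM replicates 1 and 3 they numbered 552 and 536. In all, 301 rises and 514 falls kept their call in each of the 6 fits that left out 1 library. Same-numbered libraries of the 2 groups deviated together, and 1599 genes rose and 1641 fell when that number entered the fit as a block (12.1% and 12.4%). Calls below are those of the fit without the block unless the block is named. List counts of such calls are to be read beside 7.01% of all genes higher and 8.07% lower. Counts at an unadjusted p below 0.05 are not to be read beside these shares. The share of all genes at that threshold is not given here. Counts with the block are to be read beside 12.1% and 12.4%. Among all genes tested the groups did not overlap in 16.1%, with 50 µM higher, and in 16.4%, with 50 µM lower.

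**Figure D1:**
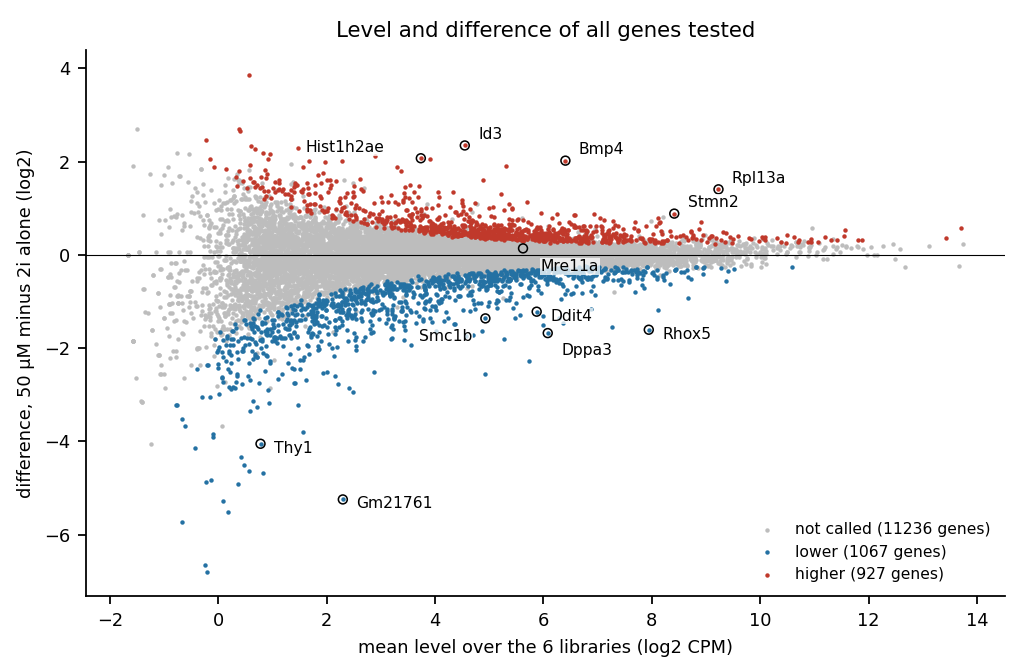
Mean level over the 6 libraries (x axis, log2 CPM) against the difference between 50 µM and 2i alone (y axis, log2) for each of the 13230 genes tested. Red points are the 927 genes called higher, blue points the 1067 called lower and grey points those not called; circles mark 12 genes of the text, with Gm21761 and Thy1 among the deeper falls and Id3 and Bmp4 among the larger rises of well-counted genes.

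Among the largest falls of well-expressed named genes was Trpm1, a cation channel of melanocytes and retina (chr7:64153835-64269775, GRCm38). Its level was 21.2, 24.8 and 21.1 CPM in the 2i libraries and 7.05, 5.82 and 4.86 CPM at 50 µM. The 12 largest falls and 12 largest rises were picked among genes whose groups did not overlap, so that separation is no result. Trpm1 was 3.79-fold lower (log2 difference -1.92, SE 0.18, edgeR adjusted p = 6.17e-07). Ddr2, a collagen receptor kinase, fell by 1.74 on the log2 scale. Platr3, a long noncoding RNA of pluripotent cells, fell by 1.72 and Lamb1, the laminin beta-1 chain, fell by 1.64. Flvcr2, Hormad2, Ap3b2, Dppa3, AI662270, Xlr4b and Rhox5 also fell, with log2 differences of -1.82 to -1.60. Each of these 11 genes kept its call in each fit that left out 1 library.

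The 12 largest rises of well-expressed named genes had Id3 at their head and Bmp4 among them. Bmp4, a ligand of the BMP pathway (chr14:46383520-46390669), was at 49.8, 34.8 and 42.9 CPM in 2i and at 218, 158 and 142 CPM at 50 µM. The difference was 4.05-fold (log2 2.02, SE 0.21, edgeR adjusted p = 6.42e-05). Id3, an inhibitor of basic helix-loop-helix factors and a direct BMP target, went from 16.4, 6.78 and 8.87 CPM to 73.1, 40.7 and 49.7 CPM, a 5.08-fold difference (log2 2.34, SE 0.39, edgeR adjusted p = 0.00377). Rpl13a, a ribosomal protein gene (chr7:45125558-45128761), was at 357, 382 and 369 CPM in 2i and at 1003, 877 and 1052 CPM at 50 µM (2.65-fold, log2 1.40, SE 0.09, edgeR adjusted p = 1.4e-09). Rpl13a has many processed copies and hosts small nucleolar RNAs, and since the strand setting and the handling of shared reads are not given, its value is uncertain. The histone genes Hist1h2ae, Hist1h3d and Hist1h4i, the noncoding RNAs Halr1 and Rian, and Irak3, Rnf165, Adam23 and Scarna9 completed the 12, with log2 differences of 1.32 to 2.07. Scarna9, a small Cajal body RNA, had an edgeR adjusted p of 0.034 that became 0.0654 with the replicate block, and lost its call without 2i replicate 1 or 2 or 50 µM replicate 2 or 3.

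**Figure D2:**
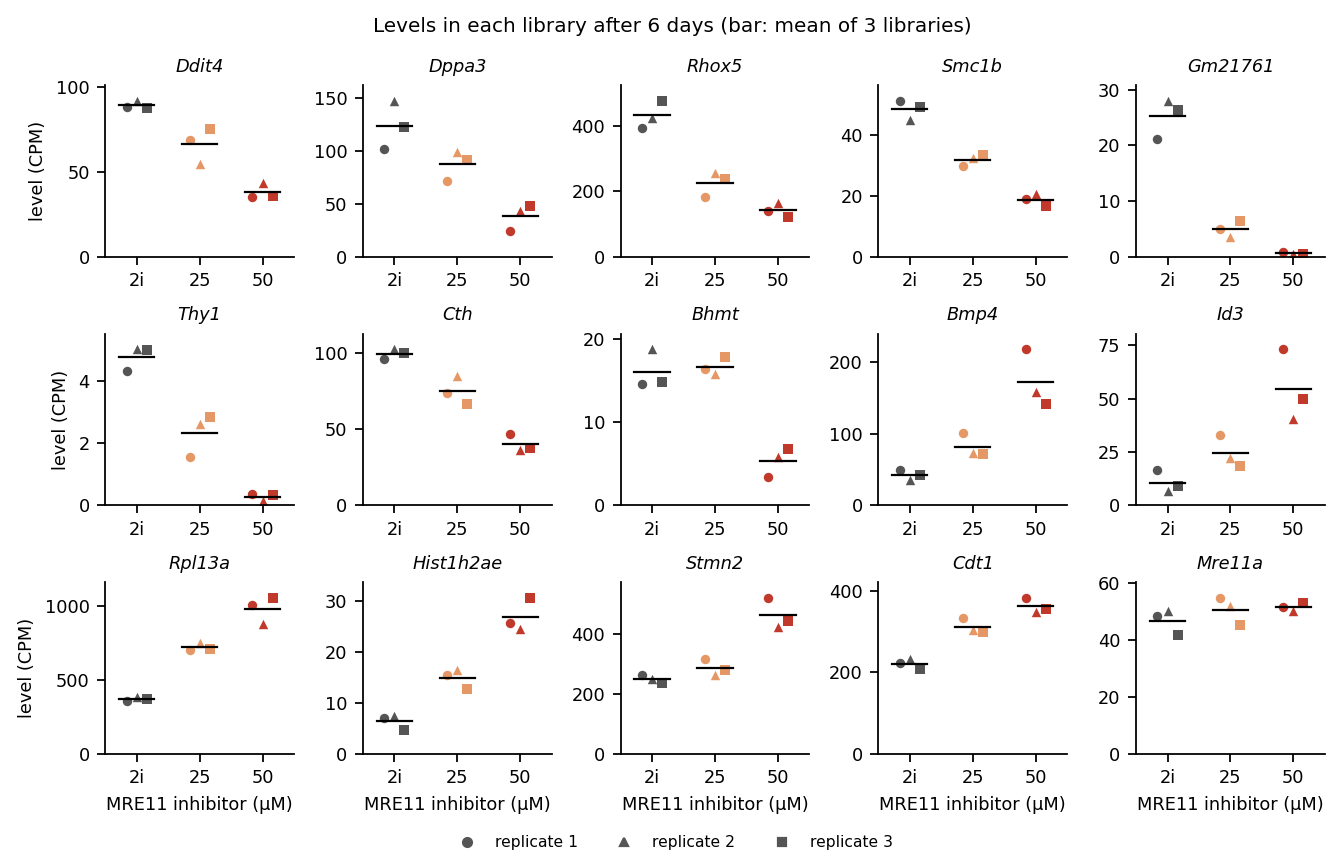
Level in each library (y axis, CPM, starting at 0) of 15 genes after 6 days in 2i alone or with 25 or 50 µM of the MRE11 inhibitor (x axis). Symbols are the 3 replicates and bars their means; the means of Ddit4, Rhox5 and Smc1b were lower and those of Rpl13a and Cdt1 higher at each higher dose, Bhmt was low only at 50 µM among these 3 conditions, and Mre11a overlapped between the groups.

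Of the 3 genes of the MRE11 complex Rad50 fell and the others were not called. Mre11a was at 48.4, 50.2 and 41.6 CPM in 2i and at 51.5, 50 and 53.1 CPM at 50 µM (log2 0.14, SE 0.10, edgeR adjusted p = 0.4). A compound that blocks the protein need not alter its mRNA, so this level is no check of the treatment. Rad50, the ATPase that bridges DNA ends, was at 314, 281 and 292 CPM in 2i and at 237, 228 and 222 CPM at 50 µM, without overlap, and fell by 0.37 on the log2 scale (SE 0.09, edgeR adjusted p = 0.00973). Nbn, the subunit that recruits ATM, was not called (log2 0.08, SE 0.13, edgeR adjusted p = 0.734).

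Among 33 tested genes of the MRE11 complex, end resection and homologous recombination, 5 rose and Rad50 alone fell (15.2% and 3.03%, beside 7.01% and 8.07% of all genes), with a median log2 difference of 0.17. Rad54l, a motor of strand invasion, rose by 0.41, Gen1, a Holliday junction resolvase, by 0.55 and Rmi2, of the BLM dissolution complex, by 0.55. The rises numbered 3 without 2i replicate 1 or 2 and without 50 µM replicate 1 or 3, and these 3 genes kept their calls in every such fit. Of 17 tested end-joining genes, 3 fell and 1 rose (17.6% and 5.88%). Trp53bp1, the factor that restrains resection, was at 79.1, 92.4 and 101 CPM in 2i and at 54.5, 71.3 and 61.8 CPM at 50 µM (log2 -0.53, SE 0.11, edgeR adjusted p = 0.00287), and Lig3, a DNA ligase, fell by 0.49. Parp2, the 1 that rose (log2 0.36), lost its call without 2i replicate 2 or 3 or 50 µM replicate 1 or 3; 2 genes rose with the block or without 50 µM replicate 2. Dclre1c, the nuclease Artemis, fell by 0.93 but lost its call without 2i replicate 1 or 2 or 50 µM replicate 1 or 2.

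Of 27 tested genes of fork protection and the replication checkpoint, 4 rose (14.8%) and none fell by edgeR's test. At an unadjusted p below 0.05 there were 2 falls. Timeless, which steadies the fork with its partner TIPIN, went from 85.2, 70.4 and 74.5 CPM to 128, 114 and 108 CPM (log2 0.60, SE 0.10, edgeR adjusted p = 0.000339). The other 3 were Primpol, a repriming primase, Zranb3, a fork-remodelling translocase, and Chek1, the checkpoint kinase, with log2 differences of 0.31 to 0.65. Each of those 3 lost its call in at least 3 of the 6 left-out fits, and the count was 1 without 2i replicate 1 or 50 µM replicate 1 or 2 and 2 without 2i replicate 3 or 50 µM replicate 3. In the Fanconi anaemia pathway, which repairs crosslinks, 3 of 18 rose (16.7%) and none fell, beside 1 fall at an unadjusted p below 0.05. These were Faap100, Fancl and Fance, and the count was 1 without 2i replicate 1 or 3 or 50 µM replicate 1 or 3; with the block 1 fell.

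Targets of p53, the factor that breaks in DNA activate, showed no common direction: of 32 tested, 3 rose and 4 fell (9.38% and 12.5%), with a median of -0.01. Cdkn1a, the p53-induced inhibitor of cyclin-dependent kinases, was at 239, 206 and 216 CPM in 2i and at 250, 226 and 207 CPM at 50 µM, and the groups overlapped (log2 0.05, SE 0.12, edgeR adjusted p = 0.841). Mdm2, which degrades p53, was also not called (log2 -0.14, SE 0.09, edgeR adjusted p = 0.301), nor was Trp53 itself (log2 0.26, SE 0.12, edgeR adjusted p = 0.146). Ddit4, an mTORC1 inhibitor that hypoxia and stress also induce, was the 1 target that kept its call in every left-out fit, at 88.3, 91.9 and 87.6 CPM in 2i and 35.4, 43.6 and 35.9 CPM at 50 µM (log2 -1.22, SE 0.12, edgeR adjusted p = 6.17e-07). The rises numbered 0 without 50 µM replicate 1 and 1 without 2i replicate 1 or 2 or 50 µM replicate 2 or 3. The falls numbered 1 without 2i replicate 2 or 3 or 50 µM replicate 3, and 2 without 50 µM replicate 1. Of 25 tested apoptosis regulators only Casp6, an effector caspase, was called (log2 -0.76); 4 fell with the block, 2 fell without 2i replicate 1 or 50 µM replicate 2, and 1 rose without 50 µM replicate 1.

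In both replication lists more genes rose than fell. Of 17 tested genes of origin licensing and the MCM helicase, 5 rose and 1 fell (29.4% and 5.88%, median 0.19), and with the replicate block 9 rose and 1 fell, beside 12.1% and 12.4% of all genes. Cdt1, the loader of the MCM helicase, was at 224, 232 and 207 CPM in 2i and at 383, 348 and 356 CPM at 50 µM, a 1.64-fold difference (log2 0.71, SE 0.08, edgeR adjusted p = 9.1e-06). Mcm5 rose by 0.49 and Orc4, an origin recognition subunit, fell by 0.43. The rises numbered 2 without 2i replicate 1 and 3 without 50 µM replicate 1 or 3. Of 42 tested genes of origin firing and the fork, 6 rose and 2 fell (14.3% and 4.76%), and 13 rose and 3 fell with the block. Gins2, a subunit of the CMG helicase, went from 117, 125 and 119 CPM to 213, 186 and 197 CPM (log2 0.72, SE 0.09, edgeR adjusted p = 9.1e-06), and Pold1, the catalytic subunit of DNA polymerase delta, rose by 0.55. The 2 falls were lost without 2i replicate 2 or 3 or 50 µM replicate 2, and 1 was left without 50 µM replicate 1.

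Among 29 tested E2F factors, cyclins and inhibitors of cyclin-dependent kinases, 5 rose and 2 fell (17.2% and 6.9%). E2f8, a repressor transcribed in S phase, was at 17.4, 17.4 and 18.9 CPM in 2i and at 46.9, 37.7 and 32.2 CPM at 50 µM (log2 1.12, SE 0.15, edgeR adjusted p = 3.53e-05). E2f2 rose by 1.00, while Ccne1, the G1/S cyclin E1, went from 128, 146 and 147 CPM to 92.2, 103 and 98.4 CPM (log2 -0.52, SE 0.09, edgeR adjusted p = 0.000396). Without 2i replicate 1 the list had 3 rises and 4 falls, and without 2i replicate 3 or 50 µM replicate 1 or 2 it had 1 fall; with the block 4 fell. Of 30 tested genes of G2/M and mitosis 1 rose (Foxm1, log2 0.42) and 1 fell (Hmmr, log2 -0.40), a share of 3.33% each. The rise was lost without 2i replicate 1 or 3 or 50 µM replicate 1 or 2 and the fall without 2i replicate 1 or 2 or 50 µM replicate 2 or 3, and with the block 3 rose and 2 fell.

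Replication-dependent histone genes are transcribed in S phase and their mRNAs end in a stem-loop in place of a poly(A) tail. Of 64 on the list 42 passed the filter, and 22 rose and none fell (52.4%, beside 7.01% of all genes); at an unadjusted p below 0.05 32 rose and none fell. The median log2 difference was 1.23, and the medians of the H2A, H2B, H3 and H4 genes were 1.43, 1.57, 1.19 and 1.44, while that of 5 H1 genes was 0.17. Hist1h2ae was at 7.06, 7.37 and 4.68 CPM in 2i and at 25.7, 24.5 and 30.6 CPM at 50 µM (4.2-fold, log2 2.07, SE 0.18, edgeR adjusted p = 1.18e-07). Hist1h4i went from 4.61, 5.01 and 5.32 CPM to 14.8, 18.2 and 21.7 CPM (log2 1.87, SE 0.18, edgeR adjusted p = 7.69e-07), and Hist1h1c, a linker histone, rose by 1.02. Summed over the list, histone reads came to 136.4 to 178.9 CPM in 2i and to 305.3 to 355.8 CPM at 50 µM, with 196.2 to 244.2 CPM at 25 µM and 217 to 277.1 CPM in primed cells.

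The libraries were primed with oligo-dT, which needs a tail or a run of A bases, and near-identical histone copies can share reads, so single histone genes are uncertain. Among other RNAs without a tail, of 51 tested small nucleolar, small Cajal body and small nuclear RNA genes 12 rose and none fell (23.5%), with a median of 0.77. Their summed level was 579.4, 398.4 and 379.2 CPM in 2i and 539.9, 647.4 and 666.5 CPM at 50 µM, so the 2i library of replicate 1 overlapped with the treated libraries. The part of tail-less RNA capture in the histone result was not tested. The histone count kept within 1.5 times of 22 in every left-out fit, and 15 of the 22 genes kept their call in all 6. Of the 22, 9 would not have passed the filter on the 2i libraries alone.

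Transcripts of the 2-cell-like state were fewer at 50 µM. Of 26 list genes found, Eif1a, which is on the list for its expressed copies in the 2-cell embryo, was measured at the level of a general translation factor and was set aside after its values were seen. The other 25 genes had 1099 counts over the 3 libraries in 2i, 222 at 25 µM and 37 at 50 µM. Of these 25, 19 had a count in 2i, each with fewer counts at 50 µM, and the other 6 had no count in either group. With Eif1a 12 passed the filter, and 11 of them were called lower, with a median log2 difference of -4.84, or -4.24 with genes at 0 counts set to their bound. None of these 11 would have passed on the 50 µM libraries alone, so the filter kept them for their level in other groups and their number and median are no support beyond the counts given. In a fit of the 6 libraries alone, with or without the block, 7 were tested and 6 fell. Gm21761, a predicted gene of the list, was at 21.2, 28 and 26.4 CPM in 2i, at 5.02, 3.58 and 6.39 CPM at 25 µM and at 0.881, 0.597 and 0.486 CPM at 50 µM. The 3 conditions did not overlap. Over the 3 libraries of each group Gm21761 had 492 counts in 2i and 12 at 50 µM. The ratio was 40.7, with an exact 95% interval of 23.1 to 79.3 that covers counting error only.

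Zscan4 genes, which encode the telomere-lengthening proteins that mark this state, were close to absent at 50 µM. Zscan4d had 42 counts over the 3 libraries in 2i and 0 at 50 µM, and was thus at least 13.9-fold lower, against a floor of 3 counts over the group. Zscan4a had 38 and 0 counts and was at least 12.6-fold lower. Zscan4c had 40 counts and 1 count, a ratio of 39.7 with an exact 95% interval of 6.73 to 1610 that covers counting error only. Tmem92 had 55 counts and 1, a ratio of 54.6 (9.4 to 2200), and Sp110, an interferon-inducible nuclear body protein, had 75 and 2, a ratio of 37.2 (9.96 to 313). The 14 list genes under the filter had 90 counts in 2i, 20 at 25 µM and 5 at 50 µM. Summed without Eif1a, the list came to 50.83, 59.07 and 59.2 CPM in 2i and to 2.291, 1.939 and 1.781 CPM at 50 µM. Zscan4 and Usp17l genes are near-identical copies, so reads can be split among them, while the sum is less affected. Arg2, the one of the 11 that did not keep its call in every left-out fit, lost it without 2i replicate 2 (edgeR adjusted p = 0.0538). In bulk RNA, fewer cells in a state and less RNA per cell cannot be told apart.

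Among germline genes that DNA methylation silences, more were called lower than higher. Of 57 found 46 were tested, and 19 fell and 4 rose (41.3% and 8.7%), with a median log2 difference of -0.61. Smc1b, the meiotic cohesin subunit, was at 51.3, 44.9 and 49.2 CPM in 2i and at 19, 20.7 and 16.7 CPM at 50 µM (2.57-fold lower, log2 -1.36, SE 0.11, edgeR adjusted p = 6.02e-08). Hormad2, a protein of the meiotic chromosome axis, went from 16.7, 17.8 and 16.4 CPM to 2.64, 5.82 and 5.99 CPM (log2 -1.80, SE 0.23, edgeR adjusted p = 2.17e-05). Tex19.1, which restrains retrotransposons in germ cells, went from 351, 418 and 500 CPM to 162, 200 and 195 CPM (log2 -1.19, SE 0.14, edgeR adjusted p = 3.46e-05). In every left-out fit 16 of the 19 falls kept their call. Of the 19, 4 would not have passed the filter on the 50 µM libraries alone. Dazl, an RNA-binding protein of germ cells, fell by 1.56, and Brdt, a testis bromodomain protein, fell by 3.17. The 4 rises, Majin, Taf9b, Dmc1 and Syce2, numbered 2 without 2i replicate 1 or 2 or 50 µM replicate 3 and 1 without 2i replicate 3. On the 2i libraries alone 1 of these 4 would not have passed the filter.

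The germline promoters with the deepest falls are shown because 41.3% of the germline genes tested fell and a known repressor of theirs reads short DNA motifs. As background, the repressor complex PRC1.6 silences germline genes through E2F6, which binds TCCCGC, and MGA with MAX, which bind CACGTG. Below are bases -150 to -1 before the RefSeq start (GRCm38.p6), on the gene's strand, with matches to either motif in capitals. They are the 4 falls of the list that were largest among genes with a match in those bases, chr5:107331044-107331193 (plus strand) for Brdt, chr6:145615813-145615962 (plus strand) for Tuba3b, chr10:88459437-88459586 (plus strand) for Sycp3 and chr5:71548206-71548355 (minus strand) for Cox7b2.
Brdt: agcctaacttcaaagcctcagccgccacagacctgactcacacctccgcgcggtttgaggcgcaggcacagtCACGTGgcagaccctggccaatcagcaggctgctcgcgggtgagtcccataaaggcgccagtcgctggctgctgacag
Tuba3b: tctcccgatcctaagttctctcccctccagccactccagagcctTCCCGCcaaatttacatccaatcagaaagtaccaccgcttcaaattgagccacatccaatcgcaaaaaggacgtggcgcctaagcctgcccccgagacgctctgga
Sycp3: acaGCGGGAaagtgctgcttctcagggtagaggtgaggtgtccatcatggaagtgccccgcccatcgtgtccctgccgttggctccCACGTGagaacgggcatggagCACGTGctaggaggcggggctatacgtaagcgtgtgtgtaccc
Cox7b2: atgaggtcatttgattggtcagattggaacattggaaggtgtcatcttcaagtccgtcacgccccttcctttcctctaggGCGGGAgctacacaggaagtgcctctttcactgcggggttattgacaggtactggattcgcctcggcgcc
In these 4 genes Brdt fell by 3.17 on the log2 scale. Tuba3b, an alpha-tubulin of testis with a near-identical copy, fell by 1.98, Sycp3, of the synaptonemal complex, fell by 1.54, and Cox7b2, a cytochrome oxidase subunit of testis, fell by 1.45. Sycp3 holds GCGGGA at -147 and CACGTG at -64 and -43, Brdt holds CACGTG at -78, Tuba3b TCCCGC at -106 and Cox7b2 GCGGGA at -70, and no matches overlapped. Both strands of the 250 bases before the start were searched. RefSeq promoters matched 18 of the 19 genes that fell: CACGTG stood in 7 of their 20 promoters (35%), beside 8.42% of the promoters of all tested genes, and TCCCGC in 7 (35%), beside 30.3%. The 64 promoters of the whole list held CACGTG as often (35.9%), so the share describes the list and not the genes that fell. A match is a description of letters, not of binding.

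Falls were also found in X-linked clusters of germline genes. Of the 19 Rhox genes, a cluster of reproductive homeobox genes, 7 passed the filter and 5 fell, with a median of -1.41; the count was 3 without 2i replicate 3, and 3 of the 5 would not have passed the filter on the 50 µM libraries alone. Rhox5, the most highly counted of them (chrX:37804842-37808876), was at 394, 424 and 475 CPM in 2i, 182, 256 and 238 CPM at 25 µM and 140, 163 and 121 CPM at 50 µM (log2 -1.60, SE 0.13, edgeR adjusted p = 2.17e-07). Rhox2a fell by 2.88, a size that rests on 14, 14 and 13 counts in 2i and 1, 2 and 2 at 50 µM. Rhox1 fell by 1.84. The Xlr genes, a multicopy family of X-linked lymphocyte-regulated genes grouped after their values were seen, had 7 tested and 6 lower, and their sum went from 86.91, 134.3 and 122.4 CPM to 26.79, 57.58 and 44.03 CPM. Copies within both clusters are similar, so single genes are uncertain.

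The machinery of DNA methylation moved in both directions, with 3 of 20 tested genes higher and 3 lower (15% each). Uhrf1, which guides maintenance methylation to replicated DNA, was at 135, 141 and 128 CPM in 2i and at 225, 207 and 183 CPM at 50 µM (log2 0.61, SE 0.09, edgeR adjusted p = 0.000113). Mbd3, of the NuRD complex, rose by 0.48. The de novo enzymes differed: Dnmt3b was at 85.7, 64.1 and 70 CPM and 79.8, 72.3 and 71.1 CPM and was not called (log2 0.02, SE 0.11, edgeR adjusted p = 0.915), whereas Dnmt3a was called lower (log2 -0.42, SE 0.14, edgeR adjusted p = 0.049) but lost its call without 2i replicate 2 or 3 or 50 µM replicate 1 or 3. A test of the difference between these 2 enzymes was not made. The falls numbered 1 without 2i replicate 2, and 5 genes rose with the block. Methylation itself was not measured.

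Of 39 tested imprinted genes 8 fell and 5 rose (20.5% and 12.8%), and 13 and 8 with the block. Rian, a maternally expressed noncoding RNA of the Dlk1-Dio3 cluster, was at 18.9, 14.1 and 17.6 CPM in 2i and at 43.2, 57.1 and 53.6 CPM at 50 µM (log2 1.61, SE 0.17, edgeR adjusted p = 3.27e-06). Mirg of the same cluster rose by 1.00, and Meg3 had a log2 difference of 0.82 that missed the call (edgeR adjusted p = 0.0617) and passed it with the block (1.89e-06). On the other side Peg10, a retrotransposon-derived gene of the placenta, went from 25.2, 16.6 and 21 CPM to 6.52, 10.6 and 10.8 CPM (log2 -1.15, SE 0.18, edgeR adjusted p = 0.000264), and Usp29 fell by 2.69; 4 of the 8 falls would not have passed the filter on the 50 µM libraries alone. The falls numbered 5 without 2i replicate 2 or 50 µM replicate 3 and 4 without 2i replicate 3, and the rises 3 without 2i replicate 2 or 50 µM replicate 2 or 3. Among 37 tested Polycomb subunits 7 rose and 3 fell (18.9% and 8.11%), led by Cbx7 (log2 0.56) and Bcor (log2 -0.67). Of these subunits 1 fell without 2i replicate 3 or 50 µM replicate 3, and 6 fell with the block.

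In the integrated stress response kinases of eIF2 raise ATF4 and its targets. Of 31 tested targets 12 fell and 2 rose (38.7% and 6.45%), with a median of -0.36. Cth, which makes cysteine from cystathionine, was at 96.3, 102 and 100 CPM in 2i and at 46.7, 36.4 and 37.4 CPM at 50 µM (2.48-fold lower, log2 -1.31, SE 0.12, edgeR adjusted p = 2.17e-07). Psat1, of serine synthesis, went from 157, 198 and 146 CPM to 103, 118 and 120 CPM (log2 -0.56, SE 0.10, edgeR adjusted p = 0.001). Mthfd2, a mitochondrial folate enzyme, fell by 0.64, and Slc7a3, a cationic amino acid transporter, was 1 of the 2 that rose (log2 0.57). The falls numbered 7 without 2i replicate 2 or 50 µM replicate 1 or 2, and 3 of the 12 would not have passed the filter on the 50 µM libraries alone.

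The promoters of this group are shown because its activator ATF4 binds, with C/EBP partners, a known element with the core TGATGNAA. The lines give bases -150 to -1 on the gene's strand with matches in capitals, for the 4 largest falls with a match there: chr1:191183334-191183483 (minus strand) for Atf3, chr7:126625471-126625620 (minus strand) for Nupr1, chr11:120643749-120643898 (minus strand) for Pycr1 and chr6:7693210-7693359 (minus strand) for Asns.
Atf3: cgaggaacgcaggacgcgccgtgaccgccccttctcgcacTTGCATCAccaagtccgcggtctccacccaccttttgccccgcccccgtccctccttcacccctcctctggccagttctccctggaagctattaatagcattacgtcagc
Nupr1: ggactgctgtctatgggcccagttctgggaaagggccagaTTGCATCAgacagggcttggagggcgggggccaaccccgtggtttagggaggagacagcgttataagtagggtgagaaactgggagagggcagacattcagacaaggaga
Pycr1: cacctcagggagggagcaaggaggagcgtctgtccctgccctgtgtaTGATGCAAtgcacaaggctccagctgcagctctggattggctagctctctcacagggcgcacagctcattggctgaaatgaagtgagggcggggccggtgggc
Asns: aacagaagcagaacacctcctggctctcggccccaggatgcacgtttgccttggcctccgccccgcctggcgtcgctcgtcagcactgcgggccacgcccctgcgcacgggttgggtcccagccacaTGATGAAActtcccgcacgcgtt
Atf3, a stress-induced factor, fell by 2.65, Nupr1, a stress-induced chromatin protein, fell by 1.94, Pycr1, the last enzyme of proline synthesis, fell by 0.80 and Asns, asparagine synthetase, fell by 0.29. Nupr1 was at 10.6, 18.4 and 6.29 CPM in 2i and at 1.59, 2.83 and 4.7 CPM at 50 µM, while Asns was at 547, 598 and 492 CPM and 445, 430 and 468 CPM, so the same letters stood before genes with deep and with shallow falls. Matches lie at -110 in Atf3 and Nupr1, at -103 in Pycr1 and at -23 in Asns. In the 250 bases before the start, on both strands, TGATGNAA stood in 4 of 13 promoters (30.8%) of the genes that fell, in 9 of 35 (25.7%) of the whole list and in 1.91% of the promoters of all tested genes. The whole list was chosen as targets of this response, so the share describes the list and not the genes that fell. As above, a match describes letters and not binding. The calls of Pycr1 and Asns did not hold in every left-out fit (largest edgeR adjusted p 0.18 and 0.184).

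Enzymes of betaine, methionine, serine and cysteine metabolism fell where they were called, 8 of 29 tested (27.6%) with no rise by edgeR's test. At an unadjusted p below 0.05 there were 2 rises. Bhmt, which remethylates homocysteine with betaine, was at 14.6, 18.7 and 14.8 CPM in 2i, 16.3, 15.8 and 17.8 CPM at 25 µM and 3.35, 5.82 and 6.8 CPM at 50 µM (log2 -1.58, SE 0.21, edgeR adjusted p = 3.12e-05). Its 25 µM libraries lay within reach of 2i (log2 0.05), and 50 µM differed from 25 µM (log2 -1.63, edgeR adjusted p = 0.000162). Cbs, the first enzyme of transsulfuration, went from 44.2, 48 and 45.3 CPM to 18.1, 25.4 and 20.6 CPM (log2 -1.10, SE 0.12, edgeR adjusted p = 3.71e-06). Without 50 µM replicate 3 the falls numbered 13, as with the block, where 2 rose. Of 20 tested aminoacyl-tRNA synthetases 4 fell (Cars, Gars, Dars and Sars, log2 -0.44 to -0.31) and none rose, with 1 rise at an unadjusted p below 0.05. None of the 4 kept its call in every left-out fit: the count was 0 without 50 µM replicate 2, 1 without 2i replicate 1 or 50 µM replicate 1 and 2 without 2i replicate 2, and with the block 7 fell and 2 rose.

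Glycolysis and hypoxia-inducible genes had 10 falls and 1 rise among 32 tested (31.2% and 3.12%). Vegfa, the endothelial growth factor, was at 18.4, 21.4 and 15 CPM in 2i and at 3.52, 10.4 and 6.31 CPM at 50 µM (log2 -1.41, SE 0.26, edgeR adjusted p = 0.00164). Bnip3, a mitophagy receptor, went from 20.4, 24.8 and 24.7 CPM to 8.11, 14 and 12.6 CPM (log2 -0.99, SE 0.22, edgeR adjusted p = 0.00556), and P4ha2, a collagen prolyl hydroxylase, fell by 1.39. The falls numbered 5 without 50 µM replicate 1. Of the glycolytic enzymes on the list Aldoc, Hk2 and Ldhb were called, each lower. Pdk1, a hypoxia-inducible kinase that restrains pyruvate oxidation, was the 1 that rose (log2 0.42); it lost its call without 2i replicate 1 or 2 or 50 µM replicate 1 or 3, and 2 members rose with the block or without 50 µM replicate 2.

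Of 22 tested naive pluripotency factors 5 fell and 1 rose (22.7% and 4.55%), with a median of 0.02. Dppa3, which shields maternal methylation in the zygote and is variably expressed in these cells, was at 102, 147 and 122 CPM in 2i and at 24.7, 43.1 and 47.6 CPM at 50 µM (3.2-fold lower, log2 -1.68, SE 0.22, edgeR adjusted p = 0.000581). Nanog was at 1130, 1315 and 1103 CPM in 2i and at 989, 1005 and 1100 CPM at 50 µM, and was not called (log2 -0.20, SE 0.10, edgeR adjusted p = 0.171; 0.0366 with the block). Esrrb was likewise not called (log2 0.24, SE 0.09, edgeR adjusted p = 0.0772; 0.0148 with the block). Klf4 rose by 0.40 and Tfcp2l1 fell by 0.26, but both lost their calls without 2i replicate 2 or 3 or 50 µM replicate 1 or 3. The falls numbered 2 without 2i replicate 2 and 3 without 2i replicate 3 or 50 µM replicate 1 or 2, and 8 fell and 3 rose with the block.

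Of 19 tested general pluripotency factors 6 rose and none fell (31.6%), with 8 rises and no fall at an unadjusted p below 0.05. Mybl2, a cell-cycle factor that is high in pluripotent cells, was at 102, 93.7 and 104 CPM in 2i and at 181, 164 and 174 CPM at 50 µM (log2 0.79, SE 0.08, edgeR adjusted p = 2.56e-06). Utf1, a chromatin factor of pluripotent cells, rose by 0.71. Markers of the primed and formative epiblast had 7 falls and 1 rise among 22 tested (31.8% and 4.55%), with a median of -0.29. Otx2, which drives exit from the naive state, was at 44.5, 38.9 and 40.3 CPM in 2i, 49.2, 40 and 44.7 CPM at 25 µM and 28, 27.9 and 32 CPM at 50 µM (log2 -0.49, SE 0.12, edgeR adjusted p = 0.00835). Grhl2, an epithelial factor, fell by 1.44. The filter would not have kept 1 of the 7 falls on the 50 µM libraries alone. The falls numbered 4 without 2i replicate 2 and 3 without 2i replicate 3 or 50 µM replicate 1, and the rise was lost without 2i replicate 2 or 3 or 50 µM replicate 1 or 3.

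Genes of the BMP and Nodal pathways were called in both directions. Of 20 tested 6 rose and 3 fell (30% and 15%), with a median of -0.17, and 6 rose and 7 fell with the block. Bmp4 and Id3 rose as given above, with Id1 (log2 1.11) and Msx2 (log2 1.24), further BMP targets named after their values were seen. Id1 lost its call in a left-out fit (largest edgeR adjusted p 0.15). Lefty2, a target and inhibitor of Nodal, was at 179, 109 and 134 CPM in 2i and at 65.2, 53.9 and 33.8 CPM at 50 µM (2.76-fold lower, log2 -1.47, SE 0.26, edgeR adjusted p = 0.00521). Nodal itself was called higher (log2 0.40) and lost that call without 2i replicate 2 or 3 or 50 µM replicate 1 or 3. Id4, unlike Id1 and Id3, fell by 0.91. The rises numbered 3 without 50 µM replicate 3.

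Targets of Wnt and beta-catenin, which the GSK3 inhibitor of 2i activates, fell in 7 of 14 tested and rose in 1 (50% and 7.14%), with a median of -0.51. Sp5, a direct target that also feeds back on the pathway, was at 6.6, 12.1 and 12.7 CPM in 2i, 1.25, 3.42 and 4.12 CPM at 25 µM and 0.881, 2.39 and 1.78 CPM at 50 µM (log2 -2.60, SE 0.38, edgeR adjusted p = 0.000152). Axin2, the negative regulator used as a standard readout, went from 30.9, 37.4 and 41 CPM to 17.1, 25.2 and 22.8 CPM (log2 -0.74, SE 0.15, edgeR adjusted p = 0.00211). Tnfrsf19 fell by 0.97. The falls numbered 4 without 2i replicate 2 or 3 or 50 µM replicate 2, and the rise was lost without 2i replicate 1 or 2 or 50 µM replicate 1 or 2. Of the 7 falls, 3 would not have passed the filter on the 50 µM libraries alone. ERK targets, which the MEK inhibitor of 2i lowers, had 4 rises and 2 falls among 23 tested (17.4% and 8.7%). Dusp6, the phosphatase most used as an ERK readout, was at 1.84, 2.5 and 1.61 CPM in 2i and 3.52, 2.54 and 1.62 CPM at 50 µM and was not called (log2 0.34, SE 0.42, edgeR adjusted p = 0.628). Epha2 rose by 0.74 and Dusp1 fell by 0.90, and only these 2 kept their calls in every left-out fit: the rises numbered 1 without 2i replicate 2 or 50 µM replicate 1 and 2 without 2i replicate 3, and the falls 1 without 2i replicate 1 or 2 or 50 µM replicate 1 or 2.

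**Figure D3:**
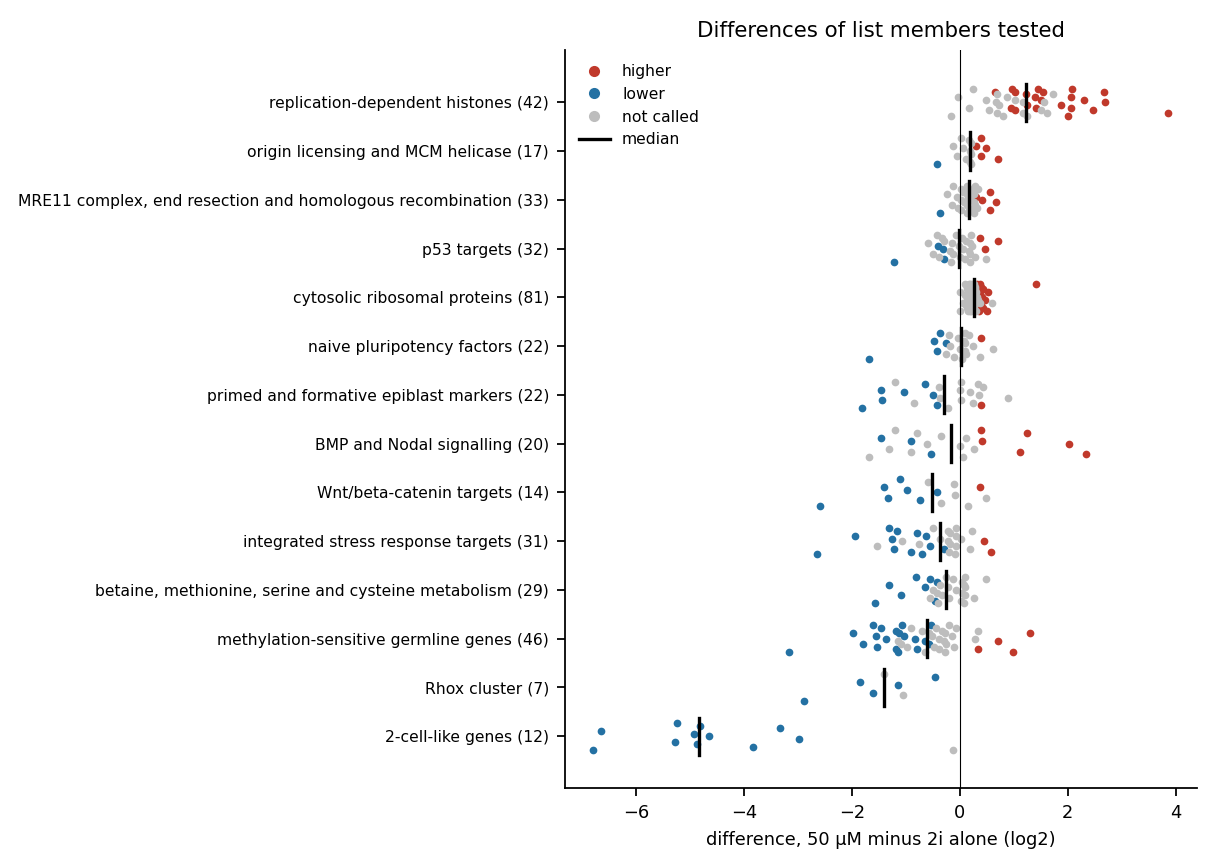
Log2 difference between 50 µM and 2i alone (x axis) of the tested members of 14 gene lists (rows, with the number tested). Each point is a gene, red where called higher, blue where called lower and grey where not called, and the black line is the list's median; tested 2-cell-like genes, which the filter kept for their level in other groups, centre on -4.84, histones on 1.23 and p53 targets on -0.01.

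Cytosolic ribosomal protein genes were called in 1 direction only, with small differences: of 81 tested 24 rose and none fell (29.6%), and 47 rose and none fell at an unadjusted p below 0.05. With the replicate block 55 rose. The median log2 difference was 0.25. Rpl27a was at 518, 585 and 585 CPM in 2i and at 811, 747 and 786 CPM at 50 µM (log2 0.47, SE 0.08, edgeR adjusted p = 0.000647), and Rpl15 rose by 0.51 and Rps19 by 0.37. The count depended on single libraries: it was 13, 14 and 11 without 2i replicate 1, 2 and 3, and 11, 39 and 7 without 50 µM replicate 1, 2 and 3. Of 41 tested ribosome biogenesis factors 2 rose (Bop1 and Nop58) and 1 fell (Noc2l), and 4 and 3 with the block; the rises numbered 1 without any 1 of the 2i libraries or without 50 µM replicate 1 and 0 without 50 µM replicate 3, and 2 genes fell without 50 µM replicate 1.

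Nuclear genes of the respiratory chain had 10 rises and no fall among 73 tested (13.7%, median 0.15), 19 rises and no fall at an unadjusted p below 0.05 and 23 rises with the block. Ndufb10, of complex I, went from 95.8, 108 and 98.9 CPM to 140, 126 and 142 CPM (log2 0.43, SE 0.09, edgeR adjusted p = 0.00249). The count was 4 without any 1 of the 2i libraries, 5 without 50 µM replicate 1 and 1 without 50 µM replicate 3. Of 8 tested mitochondrially encoded genes mt-Cytb (log2 0.57) and mt-Nd1 (log2 0.37) rose and none fell, with 5 rises with the block and 1 without 2i replicate 2 or 3 or 50 µM replicate 1. These libraries also had the higher mitochondrial share given above.

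Among CLK kinases, SR proteins and other splicing regulators 6 of 38 rose and none fell (15.8%), with 13 rises and no fall at an unadjusted p below 0.05 and 12 rises with the block. Clk3, a kinase of SR proteins, was at 44.5, 47.9 and 42.9 CPM in 2i and at 79.3, 96.7 and 76.4 CPM at 50 µM (log2 0.90, SE 0.11, edgeR adjusted p = 8.95e-06). Clk4 rose by 0.97 and Clk1 by 0.60.

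Markers of other cell types were checked for cells outside the pluripotent state. Of 14 tested fibroblast and feeder-cell markers 6 fell (42.9%) and none rose, with 1 rise at an unadjusted p below 0.05 and a median of -1.37. Thy1, a surface glycoprotein of fibroblasts and neurons, was at 4.3, 5.01 and 5 CPM in 2i and at 0.352, 0.149 and 0.324 CPM at 50 µM (log2 -4.05, SE 0.43, edgeR adjusted p = 2.58e-06). Col1a1, the main collagen of fibroblasts, fell by 3.21. These sizes rest on few counts, 93 in 2i and 5 at 50 µM for Thy1 and 140 and 14 for Col1a1. Of the 6 falls, 4 would not have passed the filter on the 50 µM libraries alone. The 8 defining fibroblast markers summed to 15.3 CPM in 2i and 3.1 CPM at 50 µM, and Lum had no count in either group. Col1a1 (7.15 and 0.762 CPM) and Thy1 (4.77 and 0.275 CPM) made up most of that fall, while Pdgfrb had 30 and 26 counts. Summed over the 25 list genes, levels were 662.4 to 696.4 CPM in 2i and 579.2 to 690.5 CPM at 50 µM. By that sum the groups overlapped. Of 21 tested basement membrane genes, which parietal endoderm secretes, 5 fell and Nid2 rose; Lamb1 was at 35.2, 25.9 and 23.9 CPM in 2i and 8.11, 10.3 and 8.74 CPM at 50 µM, 8 fell with the block, and the rise was lost in 5 of the 6 left-out fits, all but that without 2i replicate 1.

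Of 16 tested trophoblast markers 8 fell (50%) and none rose, with 1 rise at an unadjusted p below 0.05. Krt19, an epithelial keratin, went from 5.99, 4.27 and 5.65 CPM to 0.529, 1.49 and 0.809 CPM (log2 -2.43, SE 0.40, edgeR adjusted p = 0.000339), and Tfap2a fell by 1.00. The falls numbered 5 without 2i replicate 2 and 4 without 2i replicate 3 or 50 µM replicate 3, and 1 rose without 2i replicate 3 or with the block. Of the 8 falls, 3 would not have passed the filter on the 50 µM libraries alone. Among the 6 defining trophoblast markers Eomes had 83 counts in 2i and more at 50 µM, 130. Cdx2 (38 and 7), Gata3 (116 and 60), Krt8 (101 and 63), Krt18 (121 and 64) and Elf5 (1 and 0) had fewer at 50 µM. Of 7 tested endoderm markers Krt19 and Lama1 fell and none rose, with 4 falls and no rise at an unadjusted p below 0.05. The count was 1 without 2i replicate 3 or 50 µM replicate 2, and 1 of the 2 falls would not have passed the filter on the 50 µM libraries alone. Among the 5 defining endoderm markers Gata4 had 23 counts in 2i and more at 50 µM, 33. Gata6 (25 and 7), Sox17 (36 and 8), Foxa2 (8 and 1) and Dab2 (52 and 32) had fewer at 50 µM. Of 7 tested mesoderm and streak markers Bmp4 alone rose and none fell, with 1 fall at an unadjusted p below 0.05; 2 rose without 2i replicate 3 or with the block and 1 fell without 50 µM replicate 3. Of the 5 defining ones T had 32 counts in 2i, Tbx6 had 3 and Mesp1 had 4, and each had 0 at 50 µM. Gsc (159 and 100) and Mixl1 (33 and 20) had fewer at 50 µM but were still counted there. The parts of such cells in the falls of the germline, Wnt and stress genes were not tested.

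Of 17 tested neural markers 4 were higher and 2 lower (23.5% and 11.8%, median 0.61). Stmn2, a tubulin-binding protein of growing axons, was at 265, 252 and 237 CPM in 2i, 318, 266 and 280 CPM at 25 µM and 523, 424 and 444 CPM at 50 µM (1.84-fold, log2 0.88, SE 0.10, edgeR adjusted p = 4.04e-06). Ncam1, a neural cell adhesion molecule, rose by 0.75, Rtn1 by 1.63, and Nefm, a neurofilament subunit, fell by 1.42. The falls numbered 1 without 2i replicate 2 or 50 µM replicate 1. On the 2i libraries alone 1 of the 4 rises would not have passed the filter. On the 50 µM libraries alone 1 of the 2 falls would not have passed. Besides Stmn2, the defining neural marker Dcx had no count in either group, and Pax6 had 7 counts in 2i and 12 at 50 µM. Sox1 had 28 counts in 2i and 75 at 50 µM. Tubb3 (1236 and 1299 counts) and Map2 (68 and 71 counts) were at similar levels in the 2 groups.

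**Figure D4:**
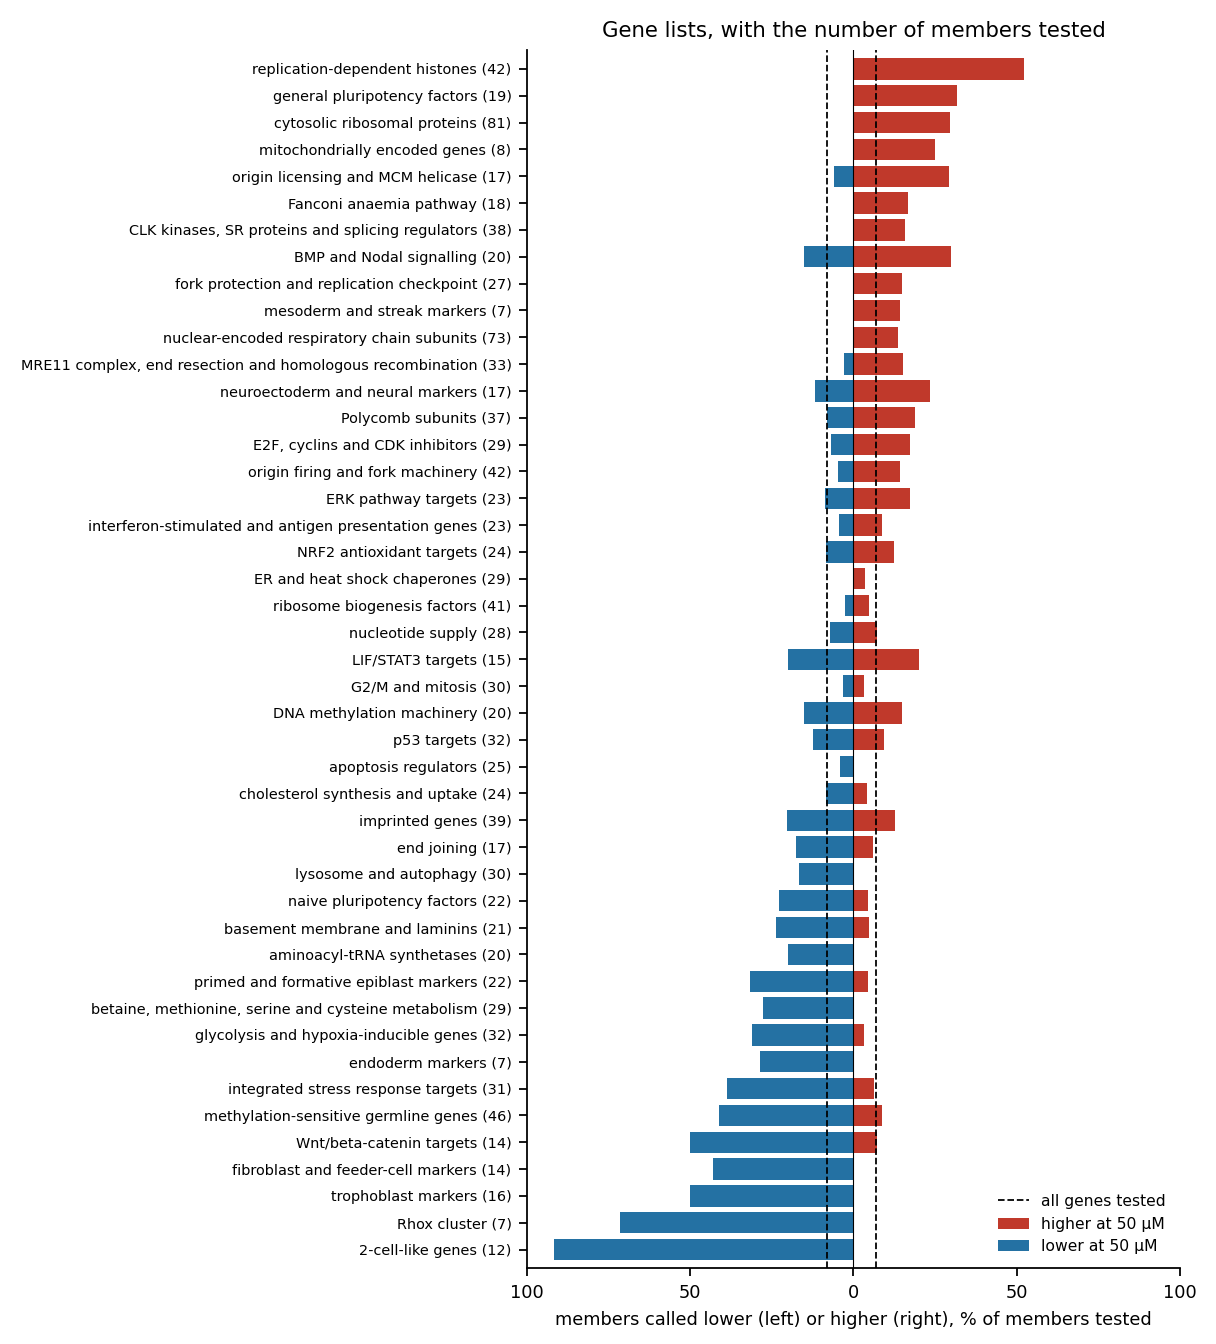
Share of tested members called lower (blue, left) or higher (red, right) at 50 µM for the 45 gene lists with at least 7 members tested (rows, with the number tested), in percent. Dashed lines are the shares among all genes tested, 8.07% lower and 7.01% higher. The bars of 2-cell-like genes reach furthest to the left and those of histones furthest to the right. The filter kept all 11 of the 2-cell-like falls for their level in other groups, so that bar is no support. Of the 22 histone rises, 9 would not have passed the filter on the 2i libraries alone.

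The lower dose gave smaller differences from the same 2i libraries. At 25 µM 60 genes rose and 64 fell (0.454% and 0.484%), and between 50 and 25 µM 24 genes were higher and 129 lower at the higher dose (0.181% and 0.975%). Both dose comparisons share the 2i libraries, so their values are given side by side. Rpl13a had log2 differences of 0.96 at 25 µM and 1.40 at 50 µM, and 50 µM differed from 25 µM (log2 0.45, edgeR adjusted p = 0.0119). Smc1b had -0.60 and -1.36, with a difference of -0.76 between doses (edgeR adjusted p = 0.000999). Otx2 and Stmn2 were not called at 25 µM (log2 0.12 and 0.20) but differed between the doses (log2 -0.61 and 0.69, edgeR adjusted p = 0.0117 and 0.000594). For Cdt1 and Uhrf1 a difference between the doses was not detected (log2 0.21 and 0.09, edgeR adjusted p = 0.285 and 0.766), while both were called at 25 µM (log2 0.50 and 0.52).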

How the data were processed

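The 12 libraries of R1 cells were made with the QuantSeq 3′ mRNA kit, primed with oligo-dT, per the labels' protocols. The authors deposited raw counts per gene, whose processing the submitters' processing notes describe with FastQC, STAR, DESeq2 1.32.0 and the build GRCm38 (mm10). The STAR version, the counting tool, its strand setting and the annotation release are not named by the sources used here. Each table held 56805 features, of which 56691 were mouse gene IDs; 114 spike-in features with 2 counts in all were left out. Symbols and positions are those of GENCODE M21 (GRCm38) and were found for 52073 IDs, which held 98.4% of counts, and the other 4618 IDs stayed in the fit. Library totals were 5894561 to 7060126 counts.

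Groups and replicate numbers came from the labels. Counts were fitted in R 4.3.3 with edgeR 4.0.16 (TMM, filterByExpr, robust quasi-likelihood F test, all 12 libraries, group only), which left 13230 genes; the contrast was 50 µM minus 2i, and the call was a p below 0.05 after Benjamini-Hochberg adjustment. SEs of log2 differences are derived from F (difference over the root of F). CPM are counts scaled to TMM-adjusted library totals. The script was tested on simulated data. Alternatives were DESeq2 1.42.0, limma-voom (limma 3.58.1), DESeq2 size factors, no low-count filter, the 6 libraries alone, a 2-fold minimum, a replicate block and leaving out each library. The labels do not say what a replicate number marks, so the main fit left it out and the block was an alternative. Over 8781 genes the deviations from group means of same-numbered 2i and 50 µM libraries correlated at 0.418, 0.209 and 0.289. The main calls do not use that pairing and are fewer than those with the block. No 2 libraries were alike enough to be duplicates.

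Members and 46 gene lists were chosen with earlier results of these data known, so no list is independent support; 55 of 1324 listed genes are on more than 1 list. Named genes are the 12 largest rises and falls (called, a mean log2 CPM no lower than 3, no predicted name, no overlap), 18 anchor genes and up to 4 members per list by smallest p. Some genes that this rule selects are not reported here. Genes named outside this rule were chosen after their values were seen. Promoters are RefSeq entries of GRCm38.p6. Figures were drawn with matplotlib 3.10.9.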

Additional observations from a re-analysis of the deposited data

How the results depend on the processing

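The counts of genes called at 50 µM were the results most open to the processing. With the replicate block, which pairs same-numbered libraries, 1599 genes rose and 1641 fell, and 1574 and 1643 in a fit of the 6 libraries alone; 1989 of the 1994 calls were among those of the block fit with 12 libraries (99.7%). A 2-fold minimum left 150 and 469. Leaving out 1 library gave 505 to 744 rises and 712 to 1074 falls, and 815 calls (40.9%) were shared by all 6 such fits. DESeq2 called 662 and 954, limma-voom 875 and 1001, DESeq2 size factors 798 and 1142, no low-count filter 884 and 1292 and the 6 libraries alone 803 and 997, each within 1.5 times. Over all alternatives 192 of 2286 values of named genes lost their call, 4 gained one and none changed direction. Of 1196 counts for gene lists 291 moved by more than 1.5 times; those moved by the block over 12 libraries or by 1 library stand beside each list whose counts are given. With 3 libraries a group and these totals, differences of low genes rest on few counts, and intervals of count ratios cover counting error only. Causes of these changes were not tested.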

Other observations

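Of 15 tested LIF and STAT3 targets 3 rose and 3 fell (20% each, beside 7.01% and 8.07% of all genes): Socs2, a feedback inhibitor of cytokine signalling, rose by 0.60, and Gja1, the gap junction protein connexin 43, fell by 0.79, while Pim1 fell by 0.54 and Bcl3 rose by 0.50, the last losing its call without 50 µM replicate 2. Of 28 tested genes of nucleotide supply 2 rose and 2 fell (7.14% each), among them Rrm2, a subunit of ribonucleotide reductase (log2 0.35), which lost its call without 2i replicate 3 or 50 µM replicate 1; the rises numbered 0 there and 1 without 2i replicate 1 or 2 or 50 µM replicate 3, 1 fell without 2i replicate 2, and with the block 7 rose and 5 fell. NRF2 drives antioxidant genes, and 3 of 24 such targets were higher (12.5%) and 2 lower (8.33%), and none of the 5 kept its call in every left-out fit; the rises numbered 0 without 2i replicate 2 or 50 µM replicate 3 and 7 with the block, and the falls 0 without 2i replicate 2 or 50 µM replicate 2 and 1 without 50 µM replicate 1 or 3. None of 4 tested targets of the aryl hydrocarbon receptor was called by edgeR, by DESeq2 or by limma-voom, with 1 higher and 1 lower at an unadjusted p below 0.05. Of 30 tested lysosome and autophagy genes 5 fell (16.7%), led by Ctsd, the protease cathepsin D (log2 -0.48), and none rose, with 2 rises at an unadjusted p below 0.05; the falls numbered 2 without 2i replicate 2 or 50 µM replicate 1 or 2 and 3 without 2i replicate 3, and 2 rose with the block and 1 without 50 µM replicate 2.

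Of 23 tested interferon-stimulated and antigen presentation genes 2 rose (Ddx58 and H2-D1, 8.7%) and Ifitm3 fell (4.35%); Ddx58, the RNA sensor RIG-I, kept its call in every left-out fit (log2 0.77, edgeR adjusted p = 0.00368), whereas H2-D1 kept it only without 2i replicate 2 and Ifitm3 lost it there. The falls numbered 2 without 50 µM replicate 3 and 3 with the block. Of 29 tested chaperones of the endoplasmic reticulum and heat shock Hspb1 alone was called (log2 0.35), and lost its call without 2i replicate 1 or 2 or 50 µM replicate 1 or 3; 1 fell without 2i replicate 2 or 50 µM replicate 1, and with the block 6 rose and 3 fell. On the cholesterol synthesis and uptake list Mvk, mevalonate kinase, rose by 0.71, and Msmo1, a sterol methyl oxidase, fell by 0.36 but lost its call without 2i replicate 2. By position, 53 of 467 tested genes of the X chromosome fell (11.3%, beside 8.07% of all genes) and 31 rose, with a median of -0.06. Falls of Rhox and Xlr genes given above are counted there. Among the autosomes the share that fell reached 9.96%, on chromosome 13. The 14 tested genes of the mitochondrial genome, transfer and ribosomal RNA genes included, had a median of 0.24, and 2 were called, both higher. Their median log2 deviations from the 2i mean were 0.303, -0.117 and -0.176 in the 2i libraries. At 50 µM these were 0.641, 0.134 and 0.099, so 2i replicate 1 overlapped with the treated libraries.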
